A study of Mus musculus with 3 samples.

Results

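Expression of 10 BCL2 family genes was measured in naive and memory T cells, B cells, NK cells, monocytes and neutrophils of mouse blood. The genes were Bcl2, Bcl2l1, Mcl1, Bcl2a1a, Bcl2a1b, Bcl2a1d, Bax, Bcl2l11, Bbc3 and Pmaip1, taken by name from the 32285 genes counted, and all 10 were present. Peripheral blood mononuclear cells were profiled by 10x 3′ single-cell RNA sequencing in 3 libraries, with 1 library per group. The groups were young mice aged 8 weeks (young), mice aged 16 months (aged) and mice aged 16 months given glycyrrhizic acid (GA), a licorice saponin, for 1 month (aged-GA). The study's methods describe female C57BL/6 mice and the tail vein as the route of GA. The labels give no treatment for young and aged mice, whereas the methods describe injections of PBS in controls. The study names several mice per group, but each group is 1 library, in which cells carry no label of their mouse, so no value below carries an error between mice.

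BCL2 family proteins set the threshold for the mitochondrial route of apoptosis. Pro-survival members (BCL-2, BCL-XL, MCL-1 and A1) hold the pore-forming effectors BAX and BAK in check. The BH3-only proteins BIM, PUMA and NOXA neutralise pro-survival members, and BIM and PUMA can also activate the effectors. Resting T cells depend on BCL-2 and on cytokine signals such as IL-7. Granulocytes are short-lived and depend on MCL-1, a protein with rapid turnover. A1 is encoded in the mouse by several near-identical genes that are induced in activated leukocytes.

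The 3 expressed A1 genes lie on chromosome 9 (GRCm38, the build named mm10 in the submitters' processing notes). Bcl2a1a was annotated at chr9:88956900-88962419 on the plus strand, Bcl2a1b at chr9:89199209-89207827 on the plus strand and Bcl2a1d at chr9:88723285-88731914 on the minus strand. Their sequences matter here because near-identical copies limit how reads are assigned to each gene. The bases that precede every annotated start of each gene are printed 5′ to 3′ on the gene's own strand from RefSeq promoter windows (GRCm38.p6), and the capital marks the base that differs between copies.
Bcl2a1a (chr9:88956714-88956855, plus strand): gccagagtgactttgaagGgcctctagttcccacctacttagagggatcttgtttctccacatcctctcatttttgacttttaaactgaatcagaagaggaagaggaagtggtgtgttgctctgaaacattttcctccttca
Bcl2a1b (chr9:89199023-89199164, plus strand): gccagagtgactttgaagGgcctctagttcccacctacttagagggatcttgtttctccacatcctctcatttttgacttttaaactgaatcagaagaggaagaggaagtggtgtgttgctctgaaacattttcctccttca
Bcl2a1d (chr9:88731915-88732050, minus strand): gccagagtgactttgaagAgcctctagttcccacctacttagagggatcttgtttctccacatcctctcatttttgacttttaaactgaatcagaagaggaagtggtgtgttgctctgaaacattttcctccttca
The Bcl2a1a and Bcl2a1b stretches of 142 bases were identical. The Bcl2a1d stretch of 136 bases had 1 substitution and lacked 6 bases of a repeated unit. All 3 held the PU.1 motif GAGGAAGT, which was found on either strand in 3.20% of 32851 RefSeq promoter windows of 300 bases. All 3 also held a match to TGANTCA, the pattern searched for AP-1 with any base allowed at N, found in 7.81% of those windows. The base at N was A in each printed stretch, and a pattern with a narrower choice of bases there was not searched. Patterns for the transcription factors NF-kB, STAT5 and FOXO were also searched, and none of them was found in any of the 3. PU.1 is a transcription factor of myeloid and B cells, and AP-1 is formed by FOS and JUN proteins. A match of letters is a description of the sequence, not of a bound site.

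The transcripts were also near-identical, although each pair was somewhat less alike than in the printed stretches. Bcl2a1a and Bcl2a1b shared 98.2% of aligned bases, Bcl2a1a and Bcl2a1d 98.8%, and Bcl2a1b and Bcl2a1d 99.1%. Of all 100-base windows in the last 500 bases, where 3′ libraries place reads, 64.3% were particular to Bcl2a1a, 67.1% to Bcl2a1b and 42.9% to Bcl2a1d. Reads that fit several copies are not counted by Cell Ranger, so the level of each copy is uncertain and the sum of the 3 is given beside it. The other members are single genes. Bcl2 lies at chr1:106538178-106714274 (minus strand), Mcl1 at chr3:95658788-95663176 (plus), Bcl2l1 at chr2:152780668-152831728 (minus) and Bax at chr7:45461697-45466898 (minus). Bcl2l11, the gene of BIM, lies at chr2:128126038-128162547 (plus), Bbc3, the gene of PUMA, at chr7:16308393-16318205 (plus), and Pmaip1, the gene of NOXA, on chromosome 18.

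The libraries held 10842, 16038 and 17332 barcodes (young, aged and aged-GA, the order used throughout), with 58894294 to 98155671 unique molecular identifiers (UMIs, each standing for 1 captured molecule). After filters rebuilt from the study's methods, 8851, 10238 and 12648 cells remained, with medians of 3810 to 4752 UMIs. The study reports other cell numbers for each group, so the cells kept are not the same set. Of the cells kept, 77.2% to 88.7% passed a marker gate of the 5 lineages. Every marker of each lineage was detected in its own class in each library. Of the barcodes kept, 24 to 34 were shared between any pair of libraries. The young library held only 49 monocytes and 13 neutrophils, against 1084 and 827 in the aged and 259 and 497 in the aged-GA library. All young myeloid values therefore weigh little, and only some of them are printed with their UMIs. Naive T cells numbered 3102, 544 and 886, memory T cells 439, 977 and 1678, B cells 2239, 4151 and 5435, and NK cells 281, 207 and 198. S100a8, a neutrophil transcript at 80430.5 to 135282 CPM (counts per 1000000 UMIs) in neutrophils, was at 2.89, 71.7 and 52.8 CPM in naive T cells. Haemoglobin took 0.244%, 3.93% and 0.940% of the UMIs of naive T cells and 0.320%, 4.20% and 1.88% of those of B cells, so haemoglobin RNA outside red cells differed between the libraries.

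Levels are UMIs of a gene summed over the cells of a class, as CPM of all UMIs of those cells. Brackets give exact Poisson 95% intervals, which cover counting error only. Differences between classes are taken within each library and given as mean ± SD over the 3 libraries (n = 3), on the log2(CPM + 1) scale. An exact two-sided sign test over 3 libraries cannot go below p = 0.25, so no difference is called significant. Levels are compared across classes and libraries for 1 gene at a time. Genes are set beside each other only by their patterns or differences over classes. Bcl2 UMIs per Bcl2l11 UMI are likewise read only as 1 quantity across classes and libraries.

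Bcl2 marked T and NK cells. In naive T cells Bcl2 was at 376 [366, 386], 680.1 [648, 713] and 678 [655, 702] CPM. In memory T cells it was at 386 [364, 409], 478 [459, 497] and 687 [672, 703] CPM. In CPM the young library was thus the lowest in both T cell classes. The aged library joined the aged-GA library in naive cells and lay between the others in memory cells. These levels are not centred on the median gene of the class, as the ratios between libraries below are. So centred, the aged over young log2 ratio of Bcl2 was 0.64 [0.57, 0.72] in naive and 0.03 [-0.07, 0.13] in memory T cells. In NK cells Bcl2 was at 432, 361 and 403 CPM, with overlapping intervals. B cells had 110 [103, 117], 155 [149, 161] and 176 [171, 181] CPM, a level 1.95 ± 0.18 below naive T cells. Monocytes had 72.6 (18 UMIs), 49.8 and 85.1 CPM and neutrophils 42.7 (3 UMIs), 17.4 and 39.0 CPM. The mean levels of naive T, memory T and NK cells had overlapping ranges over libraries, and B cells, monocytes and neutrophils followed in that order without overlap (monocytes and neutrophils over the aged and aged-GA libraries).

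The share of cells with Bcl2 followed the same order. After each cell was thinned to 1000 UMIs, 27.1%, 43.2% and 39.2% of naive T cells held a Bcl2 UMI. Of memory T cells 28.8%, 33.0% and 43.5% did, and of B cells 9.40%, 14.1% and 15.1%. Unthinned, the shares of naive T cells were 63.8%, 78.3% and 77.0%.

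**Figure D1:**
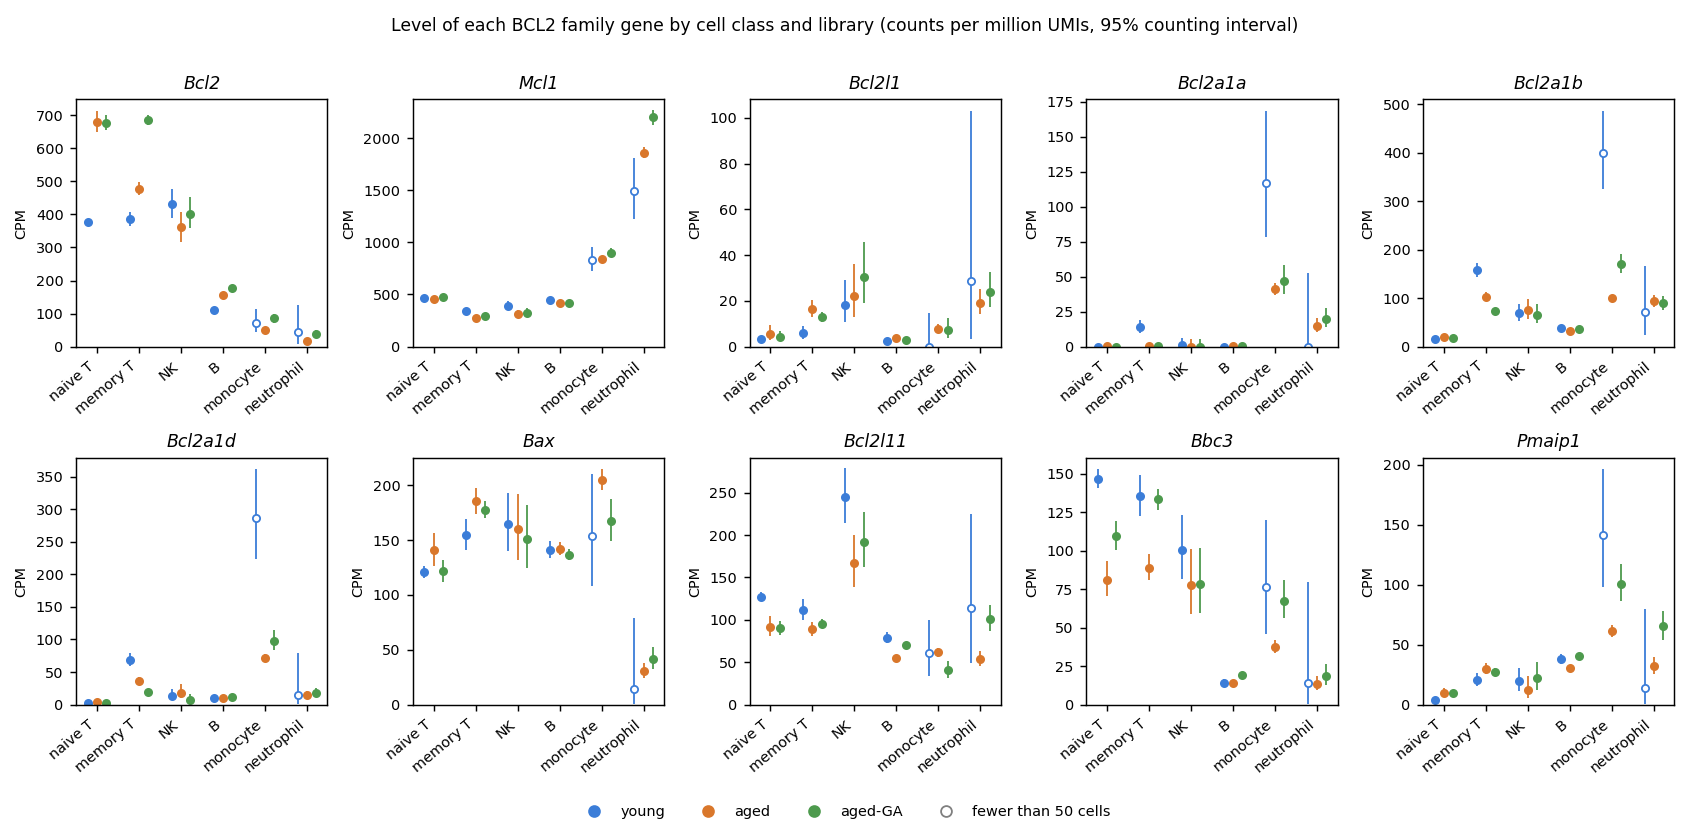
Level of each BCL2 family gene in 6 cell classes (x axis) of the young, aged and aged-GA libraries, as CPM on a linear axis (y axis) with exact 95% counting intervals (lines). Hollow points stand for classes with fewer than 50 cells. Bcl2 sits highest in T and NK cells, whereas Mcl1 reaches 1863 to 2201 CPM in aged and aged-GA neutrophils.

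CD4 and CD8 T cells, the helper and cytotoxic lineages, were then gated apart. In naive CD4 T cells Bcl2 was at 372, 682 and 653 CPM, and in naive CD8 T cells at 392, 672 and 667 CPM, a CD4 minus CD8 difference of -0.03 ± 0.05. The memory CD4 T gate held 191 [148, 243], 317 [283, 353] and 399.8 [370, 432] CPM. Memory CD8 T cells had 469 [436, 504], 558 [530.5, 586] and 774 [754, 794] CPM. Memory CD4 T cells thus lay below memory CD8 T cells in all 3 libraries, by 1.02 ± 0.25. Against naive cells of the same lineage, memory CD4 T cells were lower by 0.92 ± 0.20, whereas memory CD8 T cells differed by 0.07 ± 0.29. Over all T cells the memory minus naive difference was -0.15 ± 0.31, which is smaller than its spread and mixes these patterns. CD8 cells made up 48.7%, 48.6% and 57.4% of the memory T class and CD4 cells 12.3%, 23.4% and 19.5%, and the remainder held UMIs of neither or both. Cells with a UMI of Foxp3, the marker of regulatory T cells, were not removed from the memory CD4 T gate. In the aged library 936 of 977 memory T cells held no Foxp3 UMI, and these held 2427 of the 2443 Bcl2 UMIs. The part of Foxp3 cells in the memory CD4 T level was not tested.

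Bcl2l11 separated the same memory cells. BIM is the BH3-only protein that removes lymphocytes after cytokine withdrawal and after an immune response. Its gene was at 79.8 [53.0, 115], 43.6 [31.8, 58.3] and 48.8 [38.7, 60.8] CPM in memory CD4 T cells and at 118, 106 and 111 CPM in memory CD8 T cells. The CD4 minus CD8 difference was -1.0 ± 0.39. Memory CD4 T cells were below naive CD4 T cells by 0.84 ± 0.09, and memory CD8 T cells were above naive CD8 T cells by 0.45 ± 0.30. Without the division by lineage the memory minus naive difference was -0.05 ± 0.14. Both Bcl2 and Bcl2l11 were thus lower in memory CD4 than in memory CD8 T cells in each library, although the young Bcl2l11 intervals of the 2 gates overlapped. In the aged library memory T cells without a Foxp3 UMI held 454 of the 456 Bcl2l11 UMIs of that class. The part of Foxp3 cells in the memory CD4 T level was again not tested.

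The number of Bcl2 UMIs per Bcl2l11 UMI was lower in the young library in T and B cells. In naive T cells it was 2.95 [2.80, 3.10], 7.41 [6.46, 8.53] and 7.54 [6.82, 8.36]. In memory T cells it was 3.46, 5.36 and 7.19, and in B cells 1.39, 2.80 and 2.49. The number reached 2.39 [1.52, 3.86], 7.27 [5.31, 10.2] and 8.19 [6.48, 10.5], in memory CD4 T cells, close to naive CD4 T cells with 2.76, 8.16 and 7.31. The young interval stood apart from the aged interval in all 4 CD4 and CD8 gates except memory CD8 T cells, where it was 3.98 [3.39, 4.70] against 4.63 to 5.96. NK cells kept a low number of 1.76, 2.16 and 2.09, with overlapping intervals. Neutrophils had 0.324 in the aged and 0.387 in the aged-GA library.

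**Figure D2:**
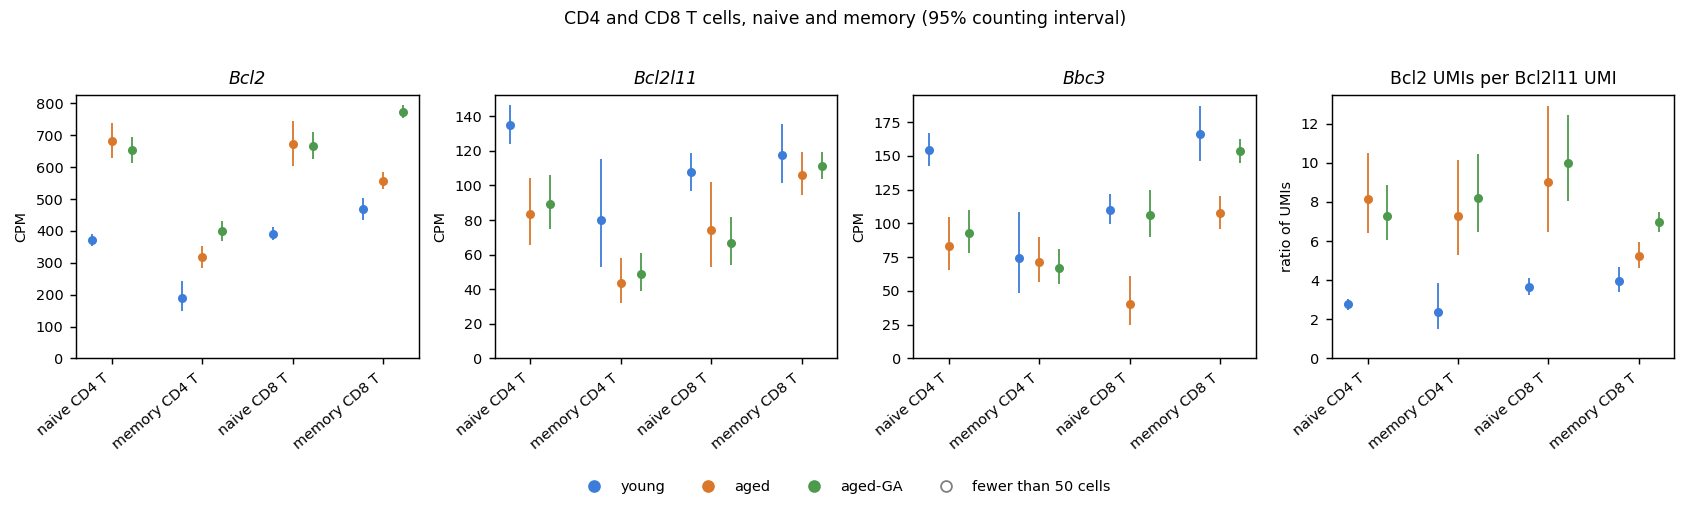
Bcl2, Bcl2l11 and Bbc3 (CPM) and Bcl2 UMIs per Bcl2l11 UMI (y axes) in naive and memory CD4 and CD8 T cells (x axis) of the 3 libraries, with exact 95% counting intervals. Memory CD4 T cells lie lowest for Bcl2 in each library (191 to 399.8 CPM), and the UMI ratio is lowest in the young library in all 4 gates.

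Mcl1 was highest in neutrophils, the class with the lowest Bcl2. MCL-1 is required for the survival of granulocytes, and its transcript was at 1496 [1223, 1811] (105 UMIs of 13 cells), 1863 [1813, 1915] and 2201 [2131, 2272] CPM there. Monocytes had 835, 844 and 903 CPM. The neutrophil level exceeded that of naive T cells, at 468, 457 and 480.1 CPM, by 1.97 ± 0.27. This difference was 1.25 once haemoglobin, ribosomal protein, mitochondrial and antigen receptor genes were taken out of the total. Thinned to 1000 UMIs, 92.3%, 81.9% and 87.6% of neutrophils held an Mcl1 UMI against 36.2% to 39.2% of naive T cells. B cells had 442, 417 and 415 CPM. Memory T cells had 337, 272 and 289 CPM, below naive T cells by 0.65 ± 0.15. Memory CD4 T cells were above memory CD8 T cells by 0.48 ± 0.05, the reverse of the order for Bcl2 in these gates. Naive CD4 T cells were likewise above naive CD8 T cells, by 0.55 ± 0.12. Within a lineage memory cells were below naive cells by 0.44 ± 0.19 in CD4 and by 0.37 ± 0.10 in CD8 T cells. NK cells had 391, 312 and 324 CPM.

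Bcl2l1, the gene of BCL-XL, was sparse. Its level was at most 30.2 CPM in every class. NK cells had 18.2, 22.3 and 30.2 CPM from 16 to 22 UMIs a library, and their intervals overlapped. Memory T cells had 5.74 [3.34, 9.19], 16.4 [13.1, 20.4] and 12.7 [10.7, 15.0] CPM, above naive T cells by 1.13 ± 0.45. B cells were at 2.44, 3.55 and 2.78 CPM. Erythroid cells carried Bcl2l1 at 80.6 to 86.7 CPM, and if all haemoglobin UMIs of a class came from such cells, the Bcl2l1 brought with them would be 0.278, 3.63 and 1.76 CPM in B cells. The aged B cell level did not exceed this amount. The same amount would be 0.212, 3.40 and 0.878 CPM in naive T cells, at 3.42, 5.52 and 4.38 CPM measured, and 0.345, 1.85 and 1.06 CPM in memory T cells.

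The A1 genes were low in naive T cells and high in nonclassical monocytes. Summed over the 3 copies, naive T cells had 18.5, 24.8 and 19.0 CPM and B cells 48.8, 42.6 and 47.4 CPM. NK cells had 84.6, 93.3 and 72.9 CPM, above naive T cells by 1.96 ± 0.15. Neutrophils had 85.5 (6 UMIs), 123 and 128 CPM, above naive T cells by 2.37 ± 0.28, and by 1.68 with the same gene groups out of the total. Nonclassical monocytes, the patrolling cells of the blood, had 826 [711, 954], 917 [874, 962] and 645 [590.0, 703] CPM. The aged and aged-GA intervals of these cells did not overlap, and the young interval overlapped the aged one.

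Memory T cells carried the A1 genes at 240.0 [223, 258], 139 [129, 150] and 93.8 [88.2, 99.7] CPM, above naive T cells by 2.77 ± 0.75. The 3 intervals did not overlap, and the young library was the highest. The gated subsets differed in this. In memory CD4 T cells the sum was 299 [245, 362], 206 [179, 236] and 225 [203, 249] CPM, and in memory CD8 T cells 103 [88.1, 120], 97.0 [85.9, 109] and 51.5 [46.4, 56.9] CPM. The CD4 level was above the CD8 level by 1.57 ± 0.52, opposite to the order for Bcl2. In memory CD8 T cells the young and aged intervals overlapped and the aged-GA interval lay below both.

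The mix of copies differed between lineages. Bcl2a1a gave 15.1%, 19.4% and 15.4% of A1 UMIs in nonclassical monocytes, and 12.1% and 15.5% in aged and aged-GA neutrophils. In naive T cells it gave 0 of 281 (a count that allows up to 0.197 CPM), 1 of 63 and 0 of 91 A1 UMIs, and in B cells 0 of 420, 11 of 661 and 11 of 1160. Bcl2a1b was the main copy in T, B and NK cells, with 65.7% to 90.6% of A1 UMIs. It also had the largest share in aged and aged-GA neutrophils, with 75.8% and 70.3%. In nonclassical monocytes its share was again the largest, at 49.2%, 46.9% and 53.3%. The 11 Bcl2a1a UMIs of aged B cells amount to 0.709 CPM. If every Lyz2 UMI of those B cells came from monocyte RNA outside cells, taken over all monocytes, this RNA would bring 0.266 CPM of Bcl2a1a. The measured interval was 0.354 to 1.27 CPM. In aged-GA B cells such RNA would bring 0.105 CPM, against 0.449 [0.224, 0.804] CPM measured. These amounts depend on the monocyte subset taken as the source. In the aged library Lyz2 was at 25529 CPM in classical and 5881 CPM in nonclassical cells, and Bcl2a1a at 3.68 and 178 CPM. Nonclassical cells alone as the source were not tested.

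**Figure D3:**
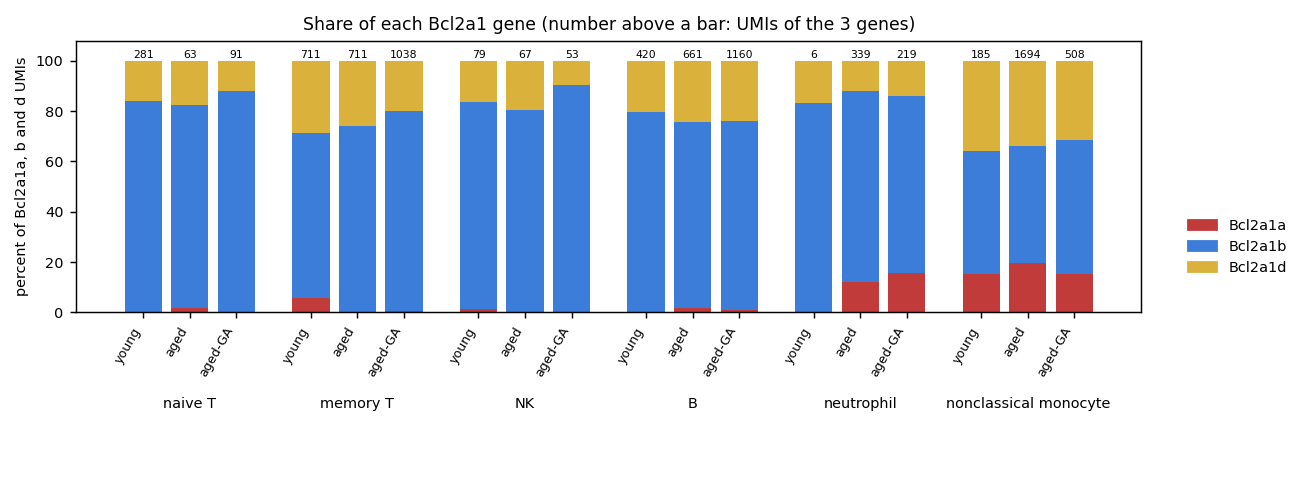
Percent of Bcl2a1a, Bcl2a1b and Bcl2a1d UMIs (y axis, stacked to 100) in 5 cell classes and nonclassical monocytes of the 3 libraries (x axis). The number above a bar is the UMIs it rests on. Bcl2a1a takes 15.1% to 19.4% in nonclassical monocytes and at most 1.66% in naive T, B and NK cells.

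Memory T cells of the young library were an exception among lymphocytes. They held 41 Bcl2a1a UMIs, 5.77% of their A1 UMIs, against 2 and 6 UMIs in the aged and aged-GA libraries. These UMIs came from 22 of 439 cells. Genes of the gamma-delta T cell receptor and of IL-17 production were then read in these cells, after the values were seen. Tcrg-C1 was detected in 21 of the 22 cells and in 39 of the other 417, and Trdc in 16 and 46. Cd163l1, a scavenger receptor gene, was detected in 16 and 21 cells, Il17a in 10 and 9, and Cxcr6 in 20 and 59. Bcl2a1b and Bcl2a1d were detected in all 22 cells, against 130 and 68 of the other 417. Because the 22 cells were chosen by a UMI of the near-identical Bcl2a1a, this is no independent result. Cells were not thinned to equal UMIs for any of these detections. Cd8a was in 0 of the 22 cells and Cd4 in 2, so these cells were outside the CD4 and CD8 gates for the most part.

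Bax was the most even member among lymphocytes and monocytes. BAX forms the pore in the outer mitochondrial membrane. Its gene was at 121 to 186 CPM in every library of naive T, memory T, B and NK cells and at 153 to 205 CPM in monocytes. Memory T cells were above naive T cells by 0.43 ± 0.10. Neutrophils stood apart with 14.2 (1 UMI), 30.5 and 41.4 CPM, below B cells by 2.37 ± 0.78.

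Bcl2l11 was highest in NK cells, at 245 [214, 279], 167 [139, 199.8] and 192 [162, 227] CPM, above naive T cells by 0.96 ± 0.12. Naive T cells had 128 [122, 133], 91.8 [80.4, 104] and 89.9 [81.6, 98.8] CPM, so the young interval was above both others. B cells had 78.9, 55.2 and 70.7 CPM, and the aged interval of [51.6, 59.1] lay below the young [73.1, 85.1] and aged-GA [67.4, 74.1] intervals, which overlapped. Monocytes had 60.5 (15 UMIs), 61.6 and 40.3 CPM. Neutrophils had 114 (8 UMIs), 53.8 [45.5, 63.2] and 101 [86.3, 117] CPM.

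Bbc3 was highest in T and NK cells and in nonclassical monocytes. PUMA is induced by p53 and by loss of cytokines. Naive T cells had 147 [141, 153], 81.2 [70.5, 93.0] and 109.5 [100.4, 119] CPM and memory T cells 135 [122, 149], 89.0 [81.1, 97.6] and 133 [127, 140.3] CPM. The aged library was the lowest in both classes. Naive CD8 T cells had 110.1 [99.4, 122], 40.1 [24.8, 61.3] and 106 [90.04, 125] CPM, the aged value resting on 21 UMIs. NK cells had 101, 78.0 and 78.4 CPM, and monocytes 76.7 (19 UMIs), 37.7 and 67.6 CPM. B cells had only 13.7, 14.0 and 18.9 CPM, below naive T cells by 2.75 ± 0.50, and neutrophils 14.2 (1 UMI), 13.4 and 18.6 CPM.

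Pmaip1 was lowest in naive T cells in each library. NOXA binds MCL-1 and A1 and promotes the turnover of MCL-1. Naive T cells had 4.14, 9.46 and 9.39 CPM, and memory T cells 20.6, 29.9 and 27.1 CPM, a difference of 1.69 ± 0.33. NK cells had 19.3, 12.5 (9 UMIs) and 22.0 CPM, and B cells 38.3, 30.3 and 40.2 CPM. Monocytes had 141 (35 UMIs), 61.5 and 101 CPM, and neutrophils 14.2 (1 UMI), 32.0 and 65.2 CPM.

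Classical and nonclassical monocytes used different members. Classical monocytes are the Ly6c2-expressing cells, of which the young library held 2, so this comparison rests on the aged and aged-GA libraries. Bcl2 was at 13.6 and 16.4 CPM in classical and at 184 and 169 CPM in nonclassical cells. The A1 genes were at 19.3 and 34.0 CPM in classical and at 917 and 645 CPM in nonclassical cells, a wider gap than for Bcl2. Bbc3 and Pmaip1 were also higher in nonclassical cells, with 96.4 and 102 against 21.5 and 37.5 CPM and with 125 and 136 against 41.1 and 57.4 CPM. Bcl2l11 and Mcl1 went the other way. Bcl2l11 was at 68.4 and 46.8 CPM in classical against 39.0 and 35.6 CPM in nonclassical cells, and Mcl1 at 881 and 984 against 730.0 and 819 CPM. Bcl2 UMIs per Bcl2l11 UMI were 0.198 and 0.350 in classical and 4.71 and 4.75 in nonclassical cells.

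Mature neutrophils had a higher Mcl1 level in CPM than immature neutrophils, which still hold granule transcripts such as Ngp and Ltf. Their Mcl1 levels were 2360.4 and 2830.3 CPM against 862 and 958 CPM, a difference of 1.45 in the aged and 1.56 in the aged-GA library. Mature cells held fewer UMIs in total, with medians of 2187 and 2334 against 6958 and 7438 per cell. In the aged library 705 mature cells held 4340 Mcl1 UMIs and 122 immature cells 787, so Mcl1 UMIs per cell were not higher in mature cells. The part of total UMIs per cell in the CPM differences was not tested. The A1 genes were at 161 and 166 CPM in mature and 47.1 and 52.0 CPM in immature cells. Pmaip1 was at 42.4 and 94.8 CPM in mature and 10.9 and 6.93 CPM in immature cells. Mature neutrophils had 13745 and 18416 CPM, and immature neutrophils 2962 and 3129 CPM, of 9 immediate early and heat shock genes summed, which sample handling can induce. These genes thus moved with Mcl1 between the subsets, and their part in the difference was not tested.

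**Figure D4:**
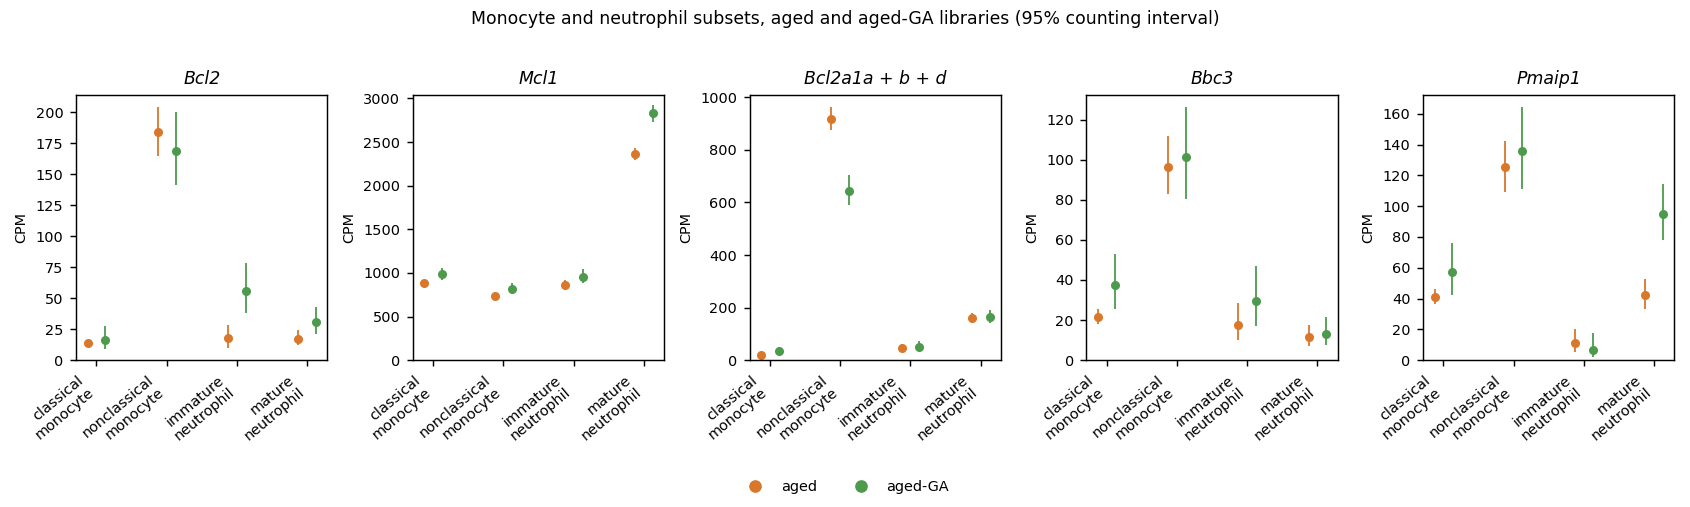
Bcl2, Mcl1, the sum of Bcl2a1a, Bcl2a1b and Bcl2a1d, Bbc3 and Pmaip1 (y axes, CPM on linear axes) in classical and nonclassical monocytes and immature and mature neutrophils (x axis) of the aged and aged-GA libraries, with exact 95% counting intervals. Nonclassical monocytes lie highest for Bcl2 (184 and 169 CPM) and the A1 genes (917 and 645 CPM), and mature neutrophils for Mcl1.

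Young and aged libraries were compared next. A member was tested in a class where both libraries together held 100 or more of its UMIs, and was set apart where its ratio of CPM (with 1 CPM added) lay past 1.5-fold either way of the median ratio of all genes tested in that class. With 1 library per group this rule of size stands in for a test, and the ratio cannot be told apart from a difference between libraries or mice. Of 60 pairs of a member and a class 41 could be tested, and 16 lay past 1.5-fold, 14 of them lower in the aged library. At 2-fold 9 remained past the limit, for which no share of all genes is given, and 10 of the 16 were in the 4 lymphocyte classes. Of all genes tested, the share past 1.5-fold ran from 14.3% in NK cells to 42.2% in monocytes and 51.2% in neutrophils. How many of all genes were lower was not counted.

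In naive T cells 3 of 6 members tested were past 1.5-fold, against 15.3% of all genes tested. Bcl2 was higher in the aged library by 0.64 [0.57, 0.72] on the log2 scale relative to the median gene. Bcl2l11 was lower, at -0.68 [-0.89, -0.49], and so was Bbc3, at -1.06 [-1.28, -0.86]. The same 3 directions held in naive CD4 T cells, with 0.76, -0.80 and -0.99, and in naive CD8 T cells, with 0.65, -0.65 and -1.56. Mcl1 was at -0.25 and Bax at 0.01, within the limit. The 9 stress genes described above for neutrophils had levels of 2727 and 2276 CPM in young and aged naive T cells, and haemoglobin took 0.244% and 3.93% of their UMIs; their part in these ratios was not tested.

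In memory T cells 6 of 9 members tested were past 1.5-fold, against 17% of all genes. Bcl2l1 was higher, at 1.09 [0.48, 2.09] from 17 young UMIs. In memory CD4 T cells alone it was at -0.51 [-2.03, 1.14] and in memory CD8 T cells at 1.59 [0.62, 3.36]. Both rest on too few UMIs for the rule. Bcl2a1b was lower at -0.89 and Bcl2a1d at -1.18. In memory CD8 T cells alone the sum of the A1 genes was at -0.40 [-0.68, -0.11] and in memory CD4 T cells alone at -0.63 [-0.98, -0.28], against -1.06 over all memory T cells. Bbc3 was lower at -0.88 [-1.08, -0.68] over all memory T cells and at -0.93 [-1.17, -0.69] in memory CD8 T cells. In memory CD4 T cells it was at -0.14 [-0.81, 0.56], within the limit. Mcl1 at -0.59 and Bcl2l11 at -0.59 lay just past the limit, and stayed past it in only 3 and 6 of 10 alternative settings. Bcl2l11 was within the limit in memory CD8 T cells, at -0.45 [-0.72, -0.18]. It was also within it at -0.56 [-0.77, -0.36] over memory T cells without a Foxp3 UMI. In memory CD4 T cells it was at -0.95 [-1.68, -0.23], from too few UMIs for the rule. Bcl2 was at 0.03 [-0.07, 0.13] over all memory T cells, at 0.63 [0.25, 1.04] in memory CD4 T cells and at -0.06 [-0.18, 0.07] in memory CD8 T cells.

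B and NK cells showed fewer members past the limit. In B cells 1 of 8 members tested was, against 14.7% of all genes. It was Bcl2l11, at -0.73 [-0.89, -0.59]. Bcl2 was at 0.26 [0.16, 0.38], Bcl2a1b at -0.52 and Pmaip1 at -0.55, all within it. The 9 stress genes had levels of 3663 and 1639 CPM in young and aged B cells, and their part was not tested. In NK cells 0 of 6 members tested were past the limit, against 14.3% of all genes, with Bcl2l11 at -0.55 [-0.89, -0.23]. Bcl2l11 was thus lower in each lymphocyte class of the aged library. Naive T and B cells lay past the limit, whereas memory T cells at -0.59 and NK cells at -0.55 lay close to it on either side.

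Myeloid ratios against the young library rest on 49 monocytes and 13 neutrophils. In monocytes 5 of 9 members tested were past 1.5-fold, against 42.2% of all genes. Bcl2a1a, Bcl2a1b and Bcl2a1d were lower at -1.51, -2.01 and -2.0, Bbc3 at -1.03 and Pmaip1 at -1.22. Nonclassical cells made up 93.9% of young and 33.9% of aged monocytes. Within nonclassical monocytes the A1 genes were at 0.07 [-0.15, 0.30], Bbc3 at 0.18 and Pmaip1 at -0.36, so the 5 ratios did not hold in that subset, whereas Bcl2 was at 1.10 [0.43, 1.88] from 18 young UMIs. In neutrophils 1 of 3 members tested was past the limit, against 51.2% of all genes. It was Bcl2l11, at -1.34 [-2.37, -0.12] from 8 young UMIs.

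**Figure D5:**
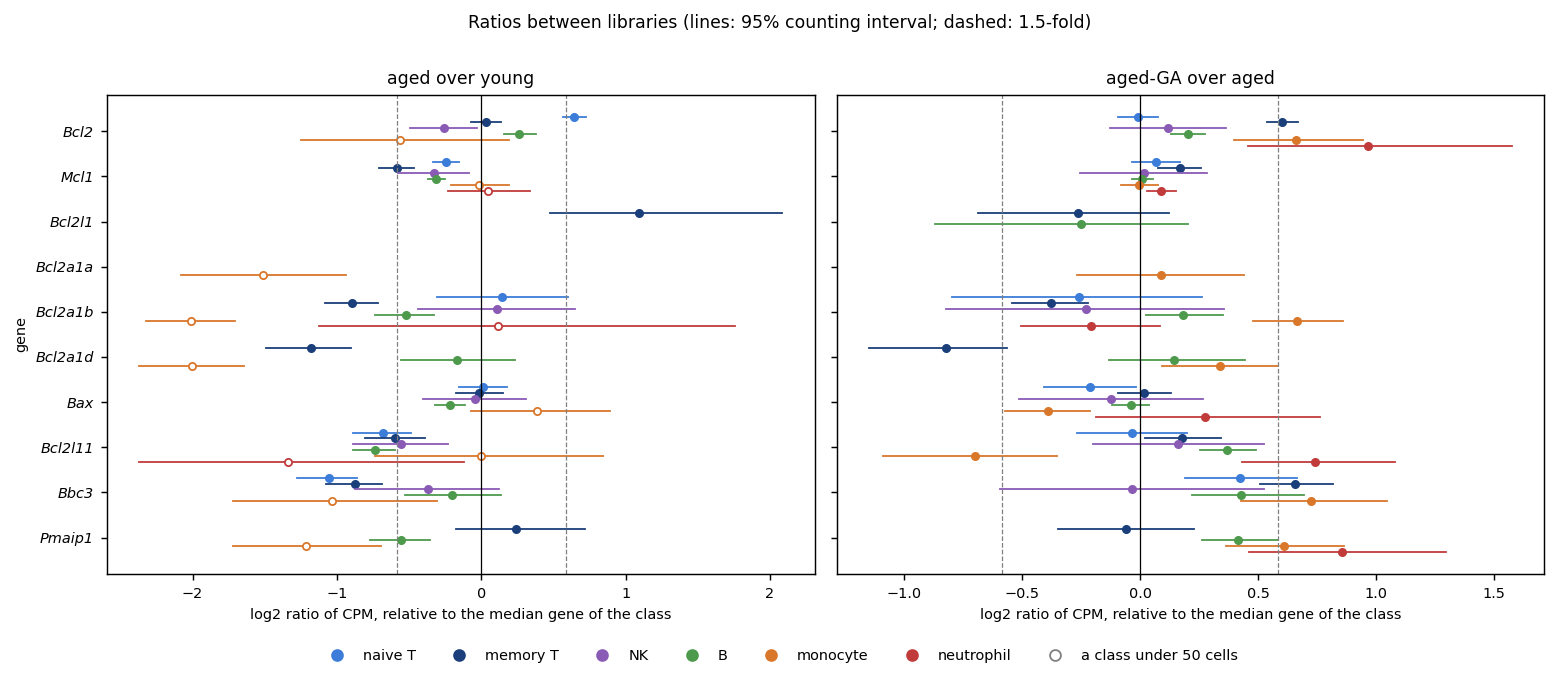
Log2 ratio of CPM between libraries relative to the median gene of the class (x axis) for each member tested (y axis), aged over young on the left and aged-GA over aged on the right, with colours for the 6 classes and 95% counting intervals as lines. Dashed lines mark 1.5-fold and hollow points a class under 50 cells. In lymphocytes Bcl2l11 lies left of 0 in the aged over young panel, and Bcl2 in memory T cells lies at 0.60 in the aged-GA over aged panel.

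The aged-GA library was compared with the aged library, which also served as one side of the comparison with young mice, so no overlap between the comparisons is drawn. Of 60 pairs 45 could be tested, and 11 lay past 1.5-fold, 9 of them higher in the aged-GA library. None of the 11 reached 2-fold, for which no share of all genes is given. Of all genes tested, the share past 1.5-fold ran from 1.83% in B cells to 12% in monocytes, and how many were higher was not counted.

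In naive T cells 0 of 6 members tested were past the limit, against 2.98% of all genes. Bcl2 was at -0.01 [-0.10, 0.07], Mcl1 at 0.06, Bcl2l11 at -0.04 and Bbc3 at 0.42 [0.19, 0.66]. In naive CD8 T cells alone Bbc3 was at 1.38 [0.73, 2.13], from 21 aged UMIs, and in naive CD4 T cells at 0.09 [-0.32, 0.52].

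In memory T cells 3 of 9 members tested were past the limit, against 4.74% of all genes. Bcl2 was higher in the aged-GA library at 0.60 [0.54, 0.67] and Bbc3 at 0.66 [0.51, 0.82], and Bcl2a1d was lower at -0.82 [-1.15, -0.57]. The Bcl2 ratio lay just past the limit: it fell within it as a mean over cells (0.52) and with a pseudocount of 10 CPM (0.57), in 2 of 10 alternative settings, and at 0.56 [0.49, 0.63] without cells holding a Foxp3 UMI. It was also within the limit in both lineage gates. In memory CD8 T cells Bcl2 was at 0.55 [0.47, 0.63], Bbc3 at 0.58 and Bcl2a1d at -1.57. In memory CD4 T cells Bcl2 was at 0.34 [0.14, 0.53], Bbc3 at -0.09 and Bcl2a1d at -0.09. CD8 cells made up 48.6% of aged and 57.4% of aged-GA memory T cells, and the part of this makeup in the pooled ratios was not tested.

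In B cells 0 of 9 members tested were past the limit, against 1.83% of all genes. The values were 0.20 for Bcl2, 0.37 for Bcl2l11, 0.43 for Bbc3 and 0.41 for Pmaip1. In NK cells 0 of 6 were, against 4.12% of all genes, with Bcl2 at 0.12 [-0.13, 0.36] and Bcl2l11 at 0.16 [-0.20, 0.52].

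In monocytes 5 of 9 members tested were past the limit, against 12% of all genes. Bcl2 was higher at 0.66, Bcl2a1b at 0.66, Bbc3 at 0.72 and Pmaip1 at 0.61, and Bcl2l11 was lower at -0.70. Nonclassical cells made up 33.9% of aged and 58.3% of aged-GA monocytes. Within nonclassical cells these members were at -0.15, -0.35, 0.05, 0.09 and -0.16, and none was past the limit there, whereas Bcl2a1a was lower at -0.87 [-1.25, -0.52] and Bcl2a1d at -0.64 [-0.91, -0.39].

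In neutrophils 3 of 6 members tested were past the limit, against 5.5% of all genes. Bcl2 was higher in the aged-GA library at 0.97 [0.45, 1.58], from 48 and 67 UMIs, Bcl2l11 at 0.74 [0.43, 1.08] and Pmaip1 at 0.85 [0.46, 1.30]. Mcl1 was at 0.09 [0.03, 0.15]. Mature cells made up 85.2% and 85.5% of neutrophils, and within them Bcl2l11 was at 0.65 [0.29, 1.02] and Pmaip1 at 1.00 [0.58, 1.45]. Bcl2 was at 0.64 [-0.06, 1.41] there, from 32 and 35 UMIs, too few for the rule. Markers of T cells moved with Bcl2: the 5 genes of the T cell panel summed to 68.7 CPM in neutrophils of the aged library and to 172 CPM in those of the aged-GA library, with all 5 above 0 in both. If all of it came from T cells, they would bring 8.77 of the 17.4 CPM of Bcl2 in aged and 27.5 of the 39.0 CPM in aged-GA neutrophils. With at least 95% of panel UMIs from the neutrophil panel the Bcl2 ratio was 0.42, within the limit. The 9 stress genes had levels of 10168 and 13277 CPM in aged and aged-GA neutrophils, and haemoglobin took 8.49% and 3.72% of UMIs. The part of stress genes and haemoglobin was not tested.

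Other genes of the pathway were compared between young and aged lymphocytes against the same shares of all genes past the limit (15.3% in naive T, 17% in memory T, 14.7% in B and 14.3% in NK cells). Of caspases and apoptosome genes 0 of 8 tested in naive T cells, 0 of 7 in memory T cells, 0 of 10 in B cells and 0 of 2 in NK cells were past 1.5-fold, with median ratios of 0.18, 0.27, 0.04 and 0.28 where the median of all genes is 0 by construction. Of 13 further BCL2 family genes, 0 of 5 tested were past it in naive T cells, 1 of 5 in memory T cells and 2 of 9 in B cells. These were Bad, a BH3-only gene, at -0.60 in memory T cells, and Bcl2l2, the gene of BCL-W, at 1.17 and Bnip3 at -0.91 in B cells. Il7r, the receptor through which IL-7 sustains Bcl2 in T cells, had 1082 and 617 CPM in young and aged naive T cells, a ratio of -1.02 relative to the median gene. In memory T cells Il7r was at -0.69. Bcl2 was thus higher and Il7r lower in aged naive T cells. Of 14 survival receptors and upstream regulators, 2 of 10 tested were past the limit in each T cell class and 2 of 11 in B cells. Besides Il7r, Nfkb1 was higher in naive T cells at 0.68 and Stat5a, a transducer of IL-2 and IL-7 signals, in memory T cells at 0.81. A list of 9 genes joined caspase inhibitors and death receptor genes, and 1 of 7 tested was past it in each of the T and B cell classes. These were the death receptor gene Tnfrsf10b at -0.93 in naive T cells, Birc5 at 2.09 in memory T cells and the death receptor gene Fas at 1.28 in B cells. The survival receptors of B cells past the limit were Il7r at -1.04 and Il2rg, the common cytokine receptor chain, at -0.81. Il7r had only 16.9 and 9.15 CPM there, and the 5 T cell panel genes summed to 34.4 and 36.2 CPM. In NK cells 0 of 1 further BCL2 family gene and 0 of 6 survival receptors and regulators tested were past it. Of the list of caspase inhibitors and death receptor genes 0 of 2 tested were. Of 4 genes listed for MCL-1 turnover 1 was past the limit in each T cell class, Trib1, whose protein takes part in protein turnover by the COP1 ligase. Trib1 was higher in naive T cells at 0.98 and in memory T cells at 0.62, and a link of Trib1 to MCL-1 was not tested.

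Between aged and aged-GA libraries, Apaf1, the gene of the apoptosome scaffold, was lower in memory T cells at -0.81. Birc5, a gene of dividing cells, was at 11.5, 63.4 and 10.5 CPM in memory T cells and at -2.41 in this comparison. In naive T cells Bad was higher at 0.61 and 0 of 5 caspase genes were past the limit. In B cells 0 of 10 caspase genes and 0 of 9 further BCL2 family genes were, and of 14 receptors and regulators Il2rb was higher at 0.78 and Il7r at 0.67, against 1.83% of all genes. Both are expressed in T cells, and the T cell panel in B cells was also higher, at 64.6 against 36.2 CPM. T cells giving that panel level would bring 4.97 of 9.15 CPM of Il7r in aged and 11.2 of 14.9 CPM in aged-GA B cells, and 2.02 of 4.71 and 3.83 of 8.66 CPM of Il2rb. In NK cells no gene was past the limit in the caspase, further BCL2 family, caspase inhibitor and death receptor, or survival receptor lists. From 1 to 4 genes were tested per list. In neutrophils Bak1, the other effector gene, was lower at -0.78 and Il7r higher at 1.81, from 30 and 78 UMIs. With the T cell panel at 68.7 and 172 CPM, T cells would bring 9.44 of the 10.9 CPM of Il7r in aged and 29.8 of the 45.4 CPM in aged-GA neutrophils.

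The genes of most similar pattern were sought over 16 points (a class in a library with at least 50 cells) among 5525 genes with a mean of at least 20 CPM, by the Pearson correlation of log2(CPM + 1), as a description since the points share libraries. For Bcl2 they were Mllt3 (0.99), Nap1l4 (0.98) and Chd3 (0.97). For Mcl1 they were Zfp36 (0.96), which encodes an RNA-binding protein of the early response, Fos (0.95) and the neutrophil gene Cd177 (0.95). For Bcl2a1a they were Ltb4r1, Lrrc25 and Slc11a1 (0.91 to 0.95), all myeloid genes, whereas Bcl2a1b and Bcl2a1d were closest to each other (0.91). For Bax they were Mrps33, Trmt112 and Mrpl16 (0.98 to 0.99), and for Bcl2l11 they were Uchl5, Ndfip2 and the perforin gene Prf1 (0.90 each). For Bbc3 they were Atp1b3, Ifi47 and Crybg1 (0.94 to 0.95), for Pmaip1 Alcam, Sla and Ptprj (0.91 to 0.92), and for Bcl2l1 Nbeal2, Cnn2 and Ppp1r18 (0.95 to 0.96).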

How the data were processed

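The deposited matrices hold raw counts, that is UMI counts per gene and barcode, which the authors made with Cell Ranger (5.0.0 per the file headers; mm10 per the submitters' processing notes) from 10x 3′ version 3 libraries read on a DNBseq platform. The study's methods name another version of Cell Ranger than the file headers. Only reads assigned to 1 gene are counted by that tool, so near-identical genes lose reads. Following the methods of the study, cells were dropped with under 200 genes, with over 90% of the highest gene number in their library or with over 7.5% mitochondrial UMIs. A cell entered a class when it held at least 2 genes of that lineage's marker panel and at least 80% of its panel UMIs came from it. T cells were naive when at least 75% of naive panel plus memory panel (S100a4, Ccl5, Cxcr3, Id2, Itgb1, Nkg7, Il2rb) UMIs were naive, memory when at most 25% were, and otherwise left out (1730, 561 and 813 cells). Monocytes were split in the same way, and neutrophils with at least 3 UMIs of Ngp, Camp, Ltf and Chil3 were called immature. No member is in a panel. Some panel and list genes are not reported here. UMIs were summed per class and library. No test was possible with single libraries. Intervals are exact Poisson or Clopper-Pearson 95% and cover counting error only, and a ratio rests on at least 100 UMIs with a pseudocount of 1 CPM. Genes named are the 10 members, list genes past 1.5-fold (at most 4 per list and comparison) and the 3 most similar genes of each member. The members, lists and rules were chosen with earlier results of these data known. Scrublet scores marked doublets as an alternative only. RefSeq promoter windows were matched for 9 of the 10 members. Scripts used Python 3.11.15, numpy 2.4.6, scipy 1.17.1 and scanpy 1.11.5, and gates, intervals and ratios were tested on simulated data.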

Additional observations from a re-analysis of the deposited data

Results flagged for a closer look

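Bcl2l11 moved in opposite directions in the myeloid classes between the aged and the aged-GA libraries. Relative to the median gene it was at 0.74 in neutrophils and at -0.70 in monocytes, a difference of 1.44 on the log2 scale that was not tested, since each group is 1 library. In classical monocytes it was at -0.59 and in nonclassical monocytes at -0.16.

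Bcl2l1 was abundant in cells outside the 6 classes. Cells that passed the erythroid marker gate numbered 335, 149 and 607 in the young, aged and aged-GA libraries, with 92.8% to 93.4% of UMIs from haemoglobin. With haemoglobin taken out of the total, Bcl2l1 was at 1141, 1217 and 1206 CPM, from 322, 98 and 431 UMIs. With haemoglobin counted it was at 80.6, 80.7 and 86.7 CPM. In the 6 classes it did not exceed 30.2 CPM. BCL-XL is known to sustain late red cell precursors. On the same scale without haemoglobin, Bcl2 was at 24.8, 49.7 and 58.8 CPM and Mcl1 at 39.0, 137 and 157 CPM. The A1 genes together had 0, 0 and 6 UMIs.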

How the results depend on the processing

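Each result was recomputed under other gates, filters, totals, pseudocounts and folds. Of 76 recomputed counts and class differences 58 held, 14 moved and 4 changed sign, and of 860 single ratios 839 stayed within and 21 left the counting interval. Of 270 ratios of members past 1.5-fold 0 changed sign, and of 590 of members within it 28 did, in 17 pairs of a member and a class. The Bcl2 memory minus naive difference was -0.92 in CD4 T cells alone and 0.068 in CD8 T cells alone, both chosen after the data were seen. The Bcl2l11 memory minus naive difference was 0.0068 with a 90% limit for naive and memory T cells, 0.0052 without S100a4 in the memory panel, -0.84 in CD4 T cells alone, 0.45 in CD8 T cells alone and -0.21 without abundant gene groups in the total. Without those groups the neutrophil minus naive T difference was 1.25 for Mcl1 and 1.68 for the A1 genes. As a mean over cells it was 2.33 and 2.83, and for the A1 genes 1.98 with a pseudocount of 10. The count of members past 1.5-fold in the aged over young comparison was 27 with no UMI minimum, 9 at 2-fold and 10 without classes under 50 cells in a library. In the aged-GA over aged comparison it was 7 as a mean over cells, 0 at 2-fold and 3 without those classes, which drops monocytes and neutrophils. No share of all genes is given beside these alternative counts. The cause was not tested unless the alternative itself removes genes or cells. Since the automatic Scrublet limit called 0 cells in the aged-GA library, the 5% of highest scores were left out in each library, chosen after the data were seen. No paired analysis was possible because each group is 1 library, and no library could be left out of a comparison between groups. Depth limits most Bcl2l1 and Bcl2a1a values and all young myeloid values.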

Other observations

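Basophil-gated cells (Mcpt8, Cpa3, Gata2, Fcer1a) had Mcl1 at 730.2 CPM in 66 aged cells and at 801 CPM in 11 aged-GA cells, close to monocytes. In the aged cells Bcl2 was at 5.18 CPM from 1 UMI, and none of the A1 genes had a UMI, with an upper limit of 19.1 CPM for each.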
